A study of Mus musculus with 6 samples.

Results

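F13a1, Spp1, Olfm3 and Fgf23 encode proteins found outside the cell, and they were chosen by their very low mRNA levels in Ba/F3 cells expressing the RPL10 R98S ribosomal protein. Tgm1 and Tgm2, transglutaminases related to F13a1, were taken with them. The 6 genes were found by symbol among 41255 listed genes, of which 25345 had a read in some library, and all 6 passed the filter that left 11550 genes for testing. Because the contrast of R98S against WT in these same libraries chose them, their own difference between the groups is described here without a test. With the reads of each group pooled, Spp1 was 155.4-fold, Olfm3 639-fold and F13a1 2227-fold lower in R98S, and R98S clone 35 held most of the R98S reads of Spp1 and F13a1. Fgf23 rested on 1 R98S read, at a ratio of 2430 with a 95% counting interval of 436 to 96028. Tgm1 and Tgm2 overlapped between the groups and were not nearly lost.

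The libraries came from Ba/F3, a mouse lymphoid line that grows on interleukin-3. There were 3 WT clones (28, 29 and 36), carrying a retroviral human RPL10 cDNA without the mutation, and 3 R98S clones (11, 13 and 35), carrying the same cDNA with it. In all 6 an shRNA lowered the mouse Rpl10 transcript, each clone had been grown up from a single cell and kept for its strong knock-down, and cells received 100 μg/ml cycloheximide for 5 min before polyA RNA was taken. Each group is thus 3 single-cell lines, and a difference that arose in a line before or after the gene transfer cannot be told apart from a difference between the genotypes within that line. Levels are normalized counts, reads scaled for the depth of their library, and the libraries held 21786776 to 24204991 reads. Rpl10 itself was listed at 1900 to 3156 normalized counts in WT and 1883 to 3028 in R98S (adjusted p = 0.871, limma), and whether reads of the human cDNA are part of these counts was not tested. Of 11 markers of the pro-B stage, Vpreb1, Igll1, Pax5, Cd24a and Rag1 had at most 3 reads in any library, while Cd79a, a chain of the B-cell receptor complex, averaged 1076 in WT and 1248 in R98S.

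Transglutaminases join glutamine to lysine side chains and so cross-link proteins. F13a1 is the A subunit of coagulation factor XIII, the plasma enzyme that stabilizes fibrin clots, and it is also made by macrophages and megakaryocytes. Tgm1 builds the cornified envelope of keratinocytes, and Tgm2 is the widely expressed tissue transglutaminase. Spp1 encodes osteopontin, a phosphorylated matrix protein and cytokine of bone and macrophages that binds CD44 and integrins. Olfm3 belongs to the olfactomedin family of secreted glycoproteins best known from brain and eye. Fgf23 is a hormone of osteocytes that lowers phosphate reabsorption in the kidney through FGF receptors and the co-receptor Klotho.

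The sequence just before the start of transcription is shown for F13a1, Spp1, Olfm3 and Fgf23, the genes chosen for their low mRNA levels in R98S. Each is the 250 bases before the outermost RefSeq start, 5′ to 3′ on the strand of the gene, in GRCm38.p6. The windows are chr13:37050245-37050494 on the minus strand for F13a1, chr5:104434861-104435110 on the plus strand for Spp1, chr3:114903828-114904077 on the plus strand for Olfm3 and chr6:127072652-127072901 on the plus strand for Fgf23. Capitals mark matches to the motifs named in the next paragraph.
F13a1: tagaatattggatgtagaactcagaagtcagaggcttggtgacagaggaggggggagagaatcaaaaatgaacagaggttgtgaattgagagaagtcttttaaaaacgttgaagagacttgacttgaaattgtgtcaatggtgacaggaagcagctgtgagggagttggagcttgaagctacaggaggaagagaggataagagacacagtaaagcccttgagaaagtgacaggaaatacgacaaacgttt
Spp1: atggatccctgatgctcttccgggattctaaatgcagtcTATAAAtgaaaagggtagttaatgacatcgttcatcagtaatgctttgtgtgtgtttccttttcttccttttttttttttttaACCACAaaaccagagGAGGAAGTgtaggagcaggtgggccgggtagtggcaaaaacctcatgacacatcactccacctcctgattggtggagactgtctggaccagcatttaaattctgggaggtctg
Olfm3: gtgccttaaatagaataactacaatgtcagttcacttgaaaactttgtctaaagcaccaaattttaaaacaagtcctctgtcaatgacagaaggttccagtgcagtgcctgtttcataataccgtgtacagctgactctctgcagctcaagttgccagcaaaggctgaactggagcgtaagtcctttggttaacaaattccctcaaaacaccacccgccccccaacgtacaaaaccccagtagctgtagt
Fgf23: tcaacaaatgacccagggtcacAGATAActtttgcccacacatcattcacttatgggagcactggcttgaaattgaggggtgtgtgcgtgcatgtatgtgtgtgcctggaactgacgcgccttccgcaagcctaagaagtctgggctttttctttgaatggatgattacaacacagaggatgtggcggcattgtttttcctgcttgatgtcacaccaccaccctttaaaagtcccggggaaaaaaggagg

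The 4 windows shown share none of the motifs searched on both strands. The Spp1 window holds TATAAA at 211 bases before the start, the RUNX motif TGTGGT, read as ACCACA on this strand, at 128 bases and the PU.1 motif GAGGAAGT at 113 bases. The Fgf23 window holds a match to the GATA motif, in the form AGATAA, at 228 bases. The F13a1 and Olfm3 windows hold no match to these or to the AP-1 motif TGANTCA, the E-box CACGTG or the cAMP response element TGACGTCA. Among 32851 windows of the same length and position, TATAAA is in 12.4%, TGTGGT in 14.0%, GAGGAAGT in 2.44% and a GATA motif (AGATAA or AGATAG or TGATAA or TGATAG) in 26.5%, while TGANTCA is in 6.75%, CACGTG in 6.02% and TGACGTCA in 1.55%. No 2 of the motifs overlap in these windows. The GC content was 42.8% for F13a1, 43.6% for Spp1, 44.0% for Olfm3 and 48.4% for Fgf23, against a median of 52.4% over all windows. Further RefSeq starts were searched but are not shown. The window before the second Spp1 start, which lies within the gene, holds 2 matches to the GATA motif, at 184 and 70 bases, and thus shares that motif with the Fgf23 window, while the second windows of F13a1 and Olfm3 and both Tgm1 windows hold no match. Tgm2 was not searched.

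F13a1 (ENSMUSG00000039109.16, chr13:36867178-37050244, minus strand, GRCm38) was abundant in every WT clone and nearly absent from the R98S clones. In WT clones 28, 29 and 36 it reached 18833, 18064 and 14497 normalized counts, and in R98S clones 11, 13 and 35 it reached 3.75, 1.02 and 17.6. The WT clones were within 1.30-fold of each other, and every R98S clone was far below the lowest of them. The means were 17131 ± 2313 and 7.45 ± 8.88 (SD, n = 3 clones each), a log2 difference of -11.56 on the log2(normalized count + 1) scale, the lowest of 11550 genes tested. The R98S signal rested on 4, 1 and 19 reads, against 49686 in the WT clones together, and the pooled ratio was 2227 with a 95% counting interval of 1497 to 3476. Clone 35 thus gave 19 of the 24 R98S reads. The log2 difference was -12.42 without R98S clone 35, -10.82 without R98S clone 13 and -10.65 with a pseudocount of 5. All intervals here cover counting error only. In these bulk samples fewer cells making an mRNA and less of it per cell cannot be told apart.

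Tgm1 (ENSMUSG00000022218.16, chr14:55700009-55713926, minus strand) was almost level between the groups. Its normalized counts were 475, 637 and 473 in the WT clones and 466, 654 and 317 in the R98S clones, in the same clone order as before. R98S clone 13 was the highest of the 6 and R98S clone 35 the lowest. Means of 529 ± 94.1 and 479 ± 169 (SD, n = 3 each) gave a log2 difference of -0.19, which was 0.08 without R98S clone 35.

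Tgm2 (ENSMUSG00000037820.15, chr2:158116402-158146436, minus strand) varied more within each group than between them. Normalized counts were 644, 176 and 761 in WT and 202, 1848 and 103 in R98S, so that R98S clone 13 was the highest library and R98S clone 35 the lowest. The R98S clones spanned 18.0-fold and the WT clones 4.32-fold. Its log2 SD of 2.18 among R98S clones was above that of 99.6% of genes tested, and its SD of 1.15 among WT clones above that of 97.97%. The mean was higher in R98S, 718 ± 981 against 527 ± 309 (SD, n = 3 each), while the log2 difference was -0.39. Without R98S clone 13 it was -1.61, and without R98S clone 35 it was 0.47. Exons of Tgm2 share 370 bases with Rprd1b and 633 with Gm20412, both on the opposite strand.

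Spp1 (ENSMUSG00000029304.14, chr5:104435118-104441050, plus strand) was the most abundant of the 6 in WT and the only low gene with at least 79 reads in every R98S clone. It stood at 46218, 43334 and 26238 normalized counts in WT and at 74.1, 107 and 545 in R98S. Means were 38597 ± 10800 and 242 ± 263 (SD, n = 3 each), with a log2 difference of -7.83. The R98S clones held 79, 105 and 589 reads, so that R98S clone 35 was 7.35-fold above R98S clone 11 and gave 589 of the 773 R98S reads. The pooled ratio of WT to R98S was 155.4 (95% counting interval 144.8 to 167.0), and without R98S clone 35 the log2 difference was -8.70. Its exons share 309 bases with Gm42793 on the same strand, where reads cannot be assigned with certainty.

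Olfm3 (ENSMUSG00000027965.15, chr3:114904078-115125722, plus strand) was near the floor of detection in each R98S clone. WT clones had 2564, 1288 and 1051 normalized counts, and R98S clones 1.88, 2.04 and 3.70, from 2, 2 and 4 reads. WT clone 28 was 2.44-fold above WT clone 36. Means were 1634 ± 814 and 2.54 ± 1.01 (SD, n = 3 each), with a log2 difference of -8.78. The pooled ratio was 639, with a counting interval of 324 to 1481, and the log2 difference was -7.66 with a pseudocount of 5.

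Fgf23 (ENSMUSG00000000182.9, chr6:127072902-127081408, plus strand) was detected by a single R98S read, in clone 13. Its WT level was itself uneven, at 240, 182 and 1857 normalized counts, and WT clone 36 was 10.2-fold above WT clone 29. That log2 SD of 1.83 was above that of 99.3% of genes tested. Means were 760 ± 951 and 0.340 ± 0.589 (SD, n = 3 each), with a log2 difference of -8.42. The pooled ratio of 2430 had a counting interval of 436 to 96028, since the R98S side was 1 read against 2259. WT clone 36 gave 1856 of the 2259 WT reads, and the log2 difference was -7.37 without it and -9.05 without WT clone 29. It was -9.22 with a pseudocount of 0.5, -6.37 with a pseudocount of 5, -11.11 with DESeq2 and -10.74 with edgeR.

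**Figure D1:**
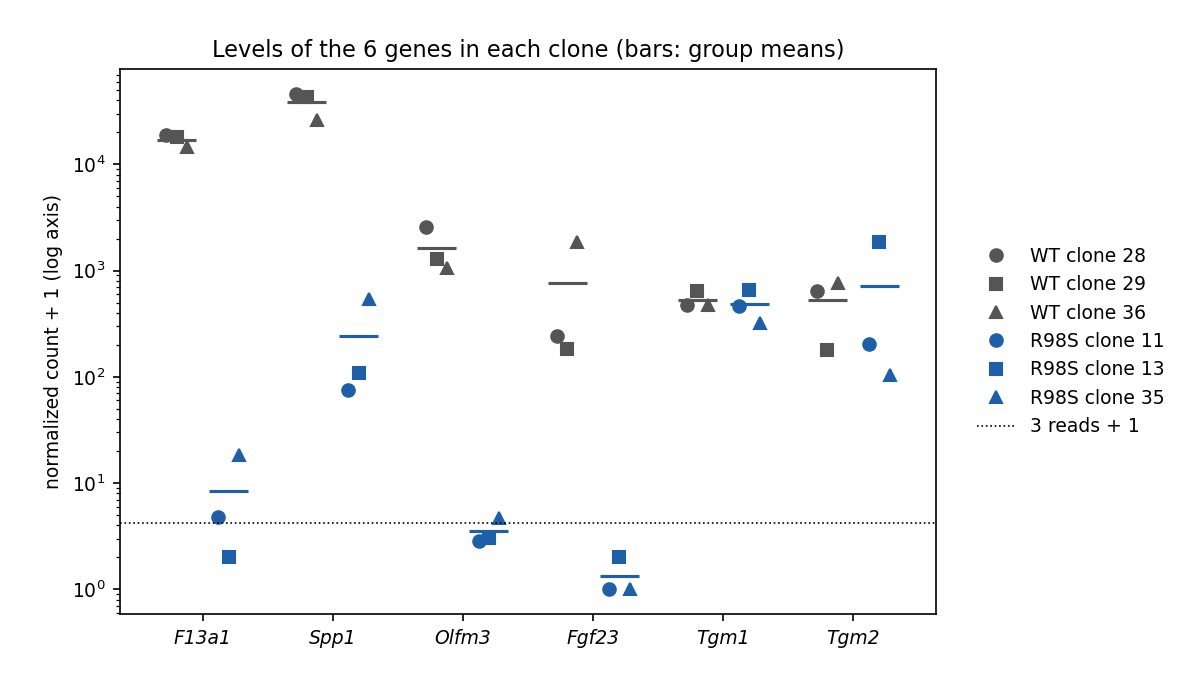
Normalized count + 1 on a log axis for each gene, with WT clones in grey, R98S clones in blue, 1 symbol a clone, horizontal bars at the group means and a dotted line at the level of 3 reads. F13a1, Spp1, Olfm3 and Fgf23 separate the groups in all 6 clones, Fgf23 is spread 10.2-fold over the WT clones, and Tgm1 and Tgm2 overlap.

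All 3 R98S clones were thus below all 3 WT clones for F13a1, Spp1, Olfm3 and Fgf23, 4 of the 6 genes. This was so for 19.2% of all genes tested, and nothing is read from the count because the contrast chose the genes. By log2 difference F13a1, Olfm3, Fgf23 and Spp1 were ranks 1, 3, 4 and 5 from the lowest, while Tgm2 and Tgm1 were ranks 2148 and 3783. In 22 tested genes the R98S mean was under 1% of the WT mean, and 5 of these had a WT mean of at least 1000 normalized counts. Spp1 and F13a1 were the 2 most abundant of the 22 in WT, Olfm3 was the fifth and Fgf23 rank 7.

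The level left in each R98S clone, as a percentage of the WT mean, differed between the genes and between the clones. For F13a1 it was 0.0219% in clone 11, 0.00596% in clone 13 and 0.103% in clone 35. The interval of clone 35, 0.0618% to 0.160%, lay above those of the other two, which reached 0.0561% and 0.0332%. For Spp1 it was 0.192%, 0.278% and 1.41%, and clone 35, at 1.30% to 1.53%, again stood above clones 11 and 13, whose intervals ended at 0.239% and 0.336%. For Olfm3 the values of 0.115%, 0.125% and 0.226% had intervals that overlapped, from 0.0139% to 0.580% over the 3 clones. Clone 35 was therefore the highest of the R98S clones for each of these 3 genes, beyond counting error for F13a1 and Spp1 and within it for Olfm3. Fgf23 gave no order of the clones, with 0.134% in clone 13 from 1 read (interval 0.00340% to 0.749%) and 0 reads in clones 11 and 35. There 3 reads, the floor used for a count of 0, would be 0.371% and 0.365%, and the two-sided 95% intervals end at 0.456% and 0.449%. Tgm1 was at 88.2%, 124% and 60.0% and Tgm2 at 38.3%, 351% and 19.5% of their WT means, and for both clone 35 was the lowest.

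**Figure D2:**
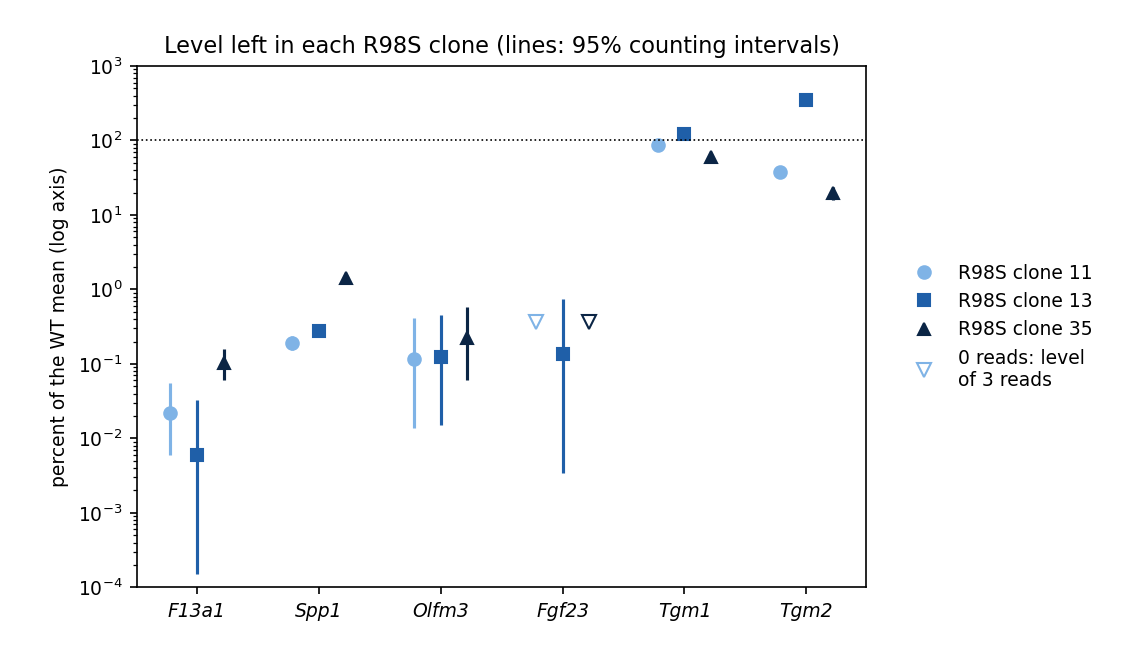
Level in each R98S clone as a percentage of the WT mean, on a log axis, with vertical lines for 95% counting intervals, open triangles at the level of 3 reads where a clone had 0 reads and a dotted line at 100%. F13a1, Spp1 and Olfm3 were highest in clone 35, at 0.103%, 1.41% and 0.226%, and Tgm1 and Tgm2 were lowest there, at 60.0% and 19.5%.

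Per kb of exon, the scale on which genes can be compared, Spp1 averaged 23420 ± 6553 normalized counts in WT (SD, n = 3), rank 24 of 10999 genes with a length. F13a1 averaged 2542 (rank 358), Fgf23 419 (rank 2839), Olfm3 331 (rank 3545), Tgm1 167 (rank 5806) and Tgm2 114 (rank 6886). Fgf23, Olfm3, Tgm1 and Tgm2 are neighbours in this order, and the clone values per kb of Fgf23, from 100.1 to 1024, spanned those of Olfm3. Tgm1 and Tgm2 overlapped as well, whereas the other neighbours in the order did not. In R98S the order was another. Tgm2, Tgm1 and Spp1 were close to each other at 156, 152 and 147 per kb, within the spread of their clones, and F13a1, Olfm3 and Fgf23 followed at 1.11, 0.514 and 0.188, with clone values that again overlapped. Spp1 was per kb 10.04, 9.81 and 7.40 times F13a1 in the WT clones and 80.8, 429 and 127 times F13a1 in R98S clones 11, 13 and 35, so F13a1 was further reduced than Spp1 in each of them, on 1 read of F13a1 in clone 13. F13a1, Spp1, Olfm3 and Fgf23 together took 0.296%, 0.269% and 0.195% of all reads in the WT clones and 0.000351%, 0.000488% and 0.00254% in the R98S clones.

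The other genes of the pathways were tested with limma over all 11550 genes, where 13.1% were called lower and 10.7% higher in R98S at an adjusted p under 0.1, and the median log2 difference was -0.01. In the transglutaminase family, Tgm3, Tgm4, Tgm5, Tgm6 and Tgm7 were all under the filter, with at most 11 reads in any library, so F13a1, Tgm1 and Tgm2 were the members that could be compared. Among 10 partners and clot substrates of factor XIII, 0 passed the filter. F13b, the carrier subunit of factor XIII, had at most 5 reads, and the fibrinogen chains Fga, Fgb and Fgg at most 3. Among 10 cornified envelope substrates of Tgm1, Evpl, which encodes envoplakin, was the 1 tested and was called higher. It stood at 5.12, 6.45 and 5.00 normalized counts in WT and at 143, 230 and 11.1 in R98S (log2 difference 3.51, adjusted p = 0.0464), and the call was lost without R98S clone 11 (adjusted p = 0.155), R98S clone 13 (0.105) or WT clone 28 (0.114), in a range of 3.16e-06 to 0.155 over all alternatives. Evpl passed the filter only through R98S, where it was higher. Lor, Sprr1a and Sprr2a1 had 0 reads in every library.

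Osteopontin receptors were present and mixed in direction. Of 10 listed, 6 were tested, 3 were lower, 1 was higher and 2 were not called, with a median log2 difference of -0.36. Of all genes tested, 13.1% were lower and 10.7% higher. Cd44, the hyaluronan receptor, fell from 4256 ± 813 to 2215 ± 429 normalized counts (SD, n = 3 clones each), a log2 difference of -0.94 (limma adjusted p = 0.0151). Itgb1, the beta chain shared by many integrins, fell from 10747 to 6836 (-0.65, adjusted p = 0.0261), and Itga5, its fibronectin-binding alpha partner, from 1830 to 1232 (-0.58, adjusted p = 0.0215). For each of these 3 receptors every R98S clone was below every WT clone, which was so for 19.2% of all genes tested. Itgb3, which pairs with Itgav, rose from 1685 to 3819 (1.05, adjusted p = 0.0906), but R98S clone 11, at 1877, was below WT clone 36, at 2113. The Itgb3 call was lost without R98S clone 13, R98S clone 35, WT clone 28, WT clone 29 or the intensity trend, and adjusted p values lay between 0.00291 and 0.214. Itgav averaged 760 and 690 (-0.14, adjusted p = 0.584) and Itga4 2072 and 2585 (0.21, adjusted p = 0.742). The bone phosphoproteins that share the chromosomal cluster of Spp1, Ibsp, Dmp1, Dspp and Mepe, had at most 4 reads in any library.

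In the olfactomedin family Olfm3 was the sole secreted member to pass the filter. Of 12 other family members and receptors, 1 was tested: Lphn1, a latrophilin receptor, averaged 1614 in WT and 1301 in R98S (log2 difference -0.31, limma adjusted p = 0.178). Olfml1 had 0 reads, and the other secreted olfactomedins at most 16 in any library.

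Among 21 other FGF ligands 2 were tested, 1 was lower and 0 were higher, where 13.1% of all genes were lower and 10.7% higher. Fgf11, an FGF homologous factor that stays in the cell, fell from 2641 ± 105 to 1265 ± 361 normalized counts (SD, n = 3 clones each), a log2 difference of -1.10 (limma adjusted p = 0.0111), with 2758, 2610 and 2554 in the WT clones and 1225, 1644 and 926 in the R98S clones. Fgf8 averaged 25.5 and 14.5 (-0.70, adjusted p = 0.359). Of 7 FGF receptors and Klotho proteins, Fgfr3 alone was tested, at 30.9 and 38.4 (0.28, adjusted p = 0.536). Kl, the co-receptor of Fgf23, had at most 3 reads, and Fgfr1 at most 13. Of the enzymes that process Fgf23 or osteopontin, 4 of 10 were tested, 2 were lower and 1 was higher. The shares of all genes were again 13.1% and 10.7%, and with a minimum mean of 50, 1 gene of this list was called. Mmp9, a metalloproteinase that can cleave osteopontin, fell from 120 to 33.4 (-1.79, adjusted p = 0.00805). Fam20a, a pseudokinase that aids the secretory-pathway kinase Fam20c, fell from 24.3 to 4.82 (-2.31, adjusted p = 0.0449), a call lost without WT clone 29 (adjusted p = 0.144, range 0.0325 to 0.144). Fam20a passed the filter only through WT, where it was higher. Phex, an endopeptidase whose loss raises Fgf23 in rickets, rose from 12.4 to 27.5 (1.08, adjusted p = 0.0648), a call lost in 6 alternatives, among them those without R98S clone 11, WT clone 28, WT clone 29 or WT clone 36 (range 0.0238 to 0.180). Furin, a proprotein convertase, averaged 18174 and 14435 (-0.34, adjusted p = 0.235).

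**Figure D3:**
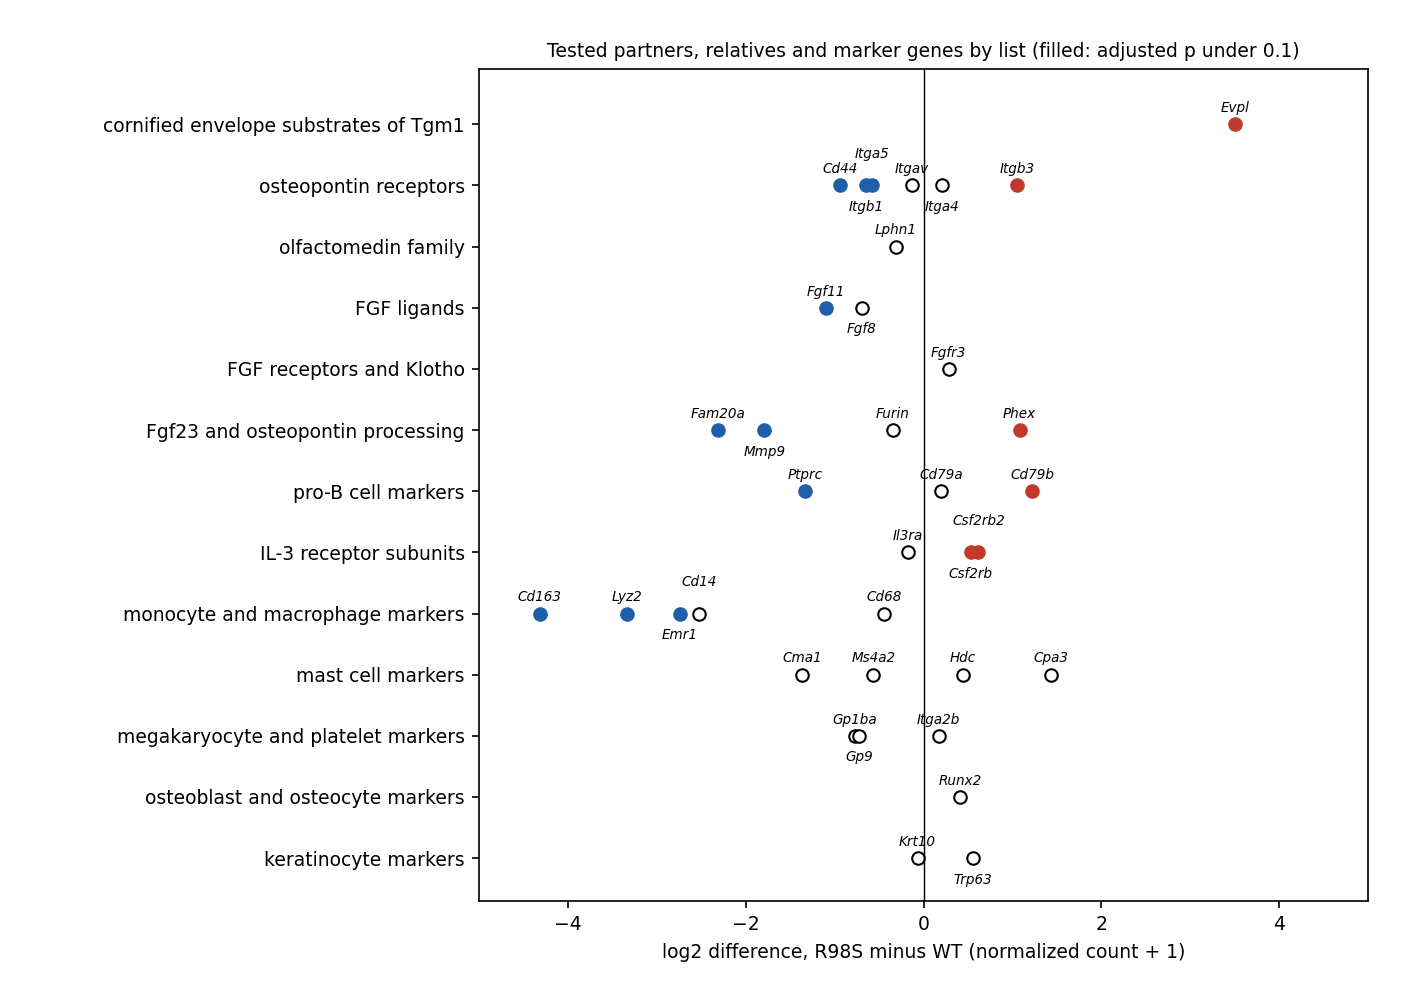
Log2 difference, R98S minus WT on log2(normalized count + 1), of each tested gene of the partner, family and marker lists, with F13a1, Spp1, Olfm3, Fgf23, Tgm1 and Tgm2 left out. Filled points passed an adjusted p under 0.1, blue for lower and red for higher. Cd163 at -4.32 and Evpl at 3.51 are the extremes of the genes plotted, and osteopontin receptors lie on both sides of 0.

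Markers of macrophages, platelets, bone cells and keratinocytes, cells known to make F13a1, Spp1, Fgf23 or Tgm1, were read in the same libraries, and none of brain or eye were. Of 11 monocyte and macrophage markers, 5 were tested, 3 were lower and 0 were higher. Over all genes tested, 13.1% were lower and 10.7% higher. Emr1, the F4/80 antigen, stood at 9800, 8967 and 12410 normalized counts in WT and at 687, 2880 and 1832 in R98S (log2 difference -2.74, limma adjusted p = 0.00834). Cd163, a haemoglobin scavenger receptor, fell from 80.2 to 7.81 (-4.32, adjusted p = 0.0253) and Lyz2, lysozyme, from 23.9 to 0.930 (-3.34, adjusted p = 0.0366), the latter not called without WT clone 29 (adjusted p = 0.117, range 0.00419 to 0.117). Both of these low genes passed the filter through WT, where they are higher, and with a minimum mean of 50, 1 marker of the list was called. Lyz2 was at 4.10, 24.7 and 43.0 in WT clones 28, 29 and 36, so that WT clone 28 was near the floor. Cd68 and Cd14 were not called, and 6 markers were not tested. The summed level of the list was 9360.1 to 12716 in WT and 800.3 to 3144 in R98S, most of it Emr1. Csf1r, the receptor that defines the lineage, had at most 7 reads in any library, and Mrc1, Marco and C1qa at most 3. Emr1, Cd163 and Lyz2 were thus lower in R98S, as F13a1 and Spp1 were, and their part in the result was not tested. Over the R98S clones, F13a1 and Spp1 were highest in clone 35. Emr1 was highest in clone 13, Cd163 in clone 11 (21.6) and Lyz2, near the floor, in clone 35 (1.85).

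Few markers of the other cells had a level to test. Of 7 megakaryocyte and platelet markers 3 were tested and 0 called by limma, with Pf4 at no more than 4 reads and Gp1bb at 0. The platelet list summed to 5052 to 12218 in WT and 5450.1 to 9549 in R98S, most of it Itga2b, the integrin chain of the platelet fibrinogen receptor. Of 8 osteoblast and osteocyte markers, Runx2 alone was tested (0.42, adjusted p = 0.109), and Bglap, Alpl, Sost and Dmp1 had at most 3 reads. Of 6 keratinocyte markers 2 were tested and 0 called, with Krt5 and Krt14 at no more than 2 reads. Of 9 mast cell markers 4 were tested and 0 called. In the platelet, mast cell and keratinocyte lists, as for Lphn1 and Fgfr3, 0 tested genes had an unadjusted p under 0.05 and edgeR and DESeq2 called 0, while Runx2 had an unadjusted p under 0.05 and was called by DESeq2. The markers of Ba/F3 itself were 2 higher subunits of the interleukin-3 receptor out of 3, Csf2rb (0.53, adjusted p = 0.0509) and Csf2rb2 (0.62, adjusted p = 0.0178), and in the pro-B list a lower Ptprc (-1.33, adjusted p = 0.00894) and a higher Cd79b (1.22, adjusted p = 0.0617). The calls of Csf2rb and Cd79b were each lost in some alternatives, with adjusted p up to 0.195 and 0.177. Of all genes tested, 13.1% were lower and 10.7% higher.

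The tested genes nearest to the 6 on their chromosomes were examined because they were chosen by position and not by the contrast. They still had to pass the filter on mean level in these same libraries. The lower genes Gm9889 and Gm23098, counted below, did so only through WT. Nearest here means nearest tested, and some are far away. The farthest lay 5990 kb from Olfm3, 1840 kb from F13a1 and 1730 kb from Fgf23. For Spp1, Tgm2 and Tgm1 it lay at 1260, 622 and 47.5 kb. Of the 60 nearest tested genes, 5 on each side of each, 13 or 21.7% were lower, 7 were higher and 40 were not called, where 13.1% and 10.7% of all genes were lower and higher. Without WT clone 28, 7 neighbours or 11.7% were lower, against 6.38% of all genes in the same fit, and without WT clone 29 again 7, against 6.97%. Without R98S clone 11, 4 neighbours or 6.67% were higher, against 6.08% of all genes, and without WT clone 28, 3 neighbours, against 5.06%. Around F13a1, Fars2 at 141 kb was not called (log2 difference -0.27, limma adjusted p = 0.291) and Rreb1 at 728 kb was lower (-0.42, adjusted p = 0.0389, lost without WT clone 28 or 29, range 0.00945 to 0.157), with Rpp40 (0.67) and Snrnp48 (1.02) higher. Around Spp1, Nudt9 at 370 kb (-0.34, adjusted p = 0.143) and BC005561 at 67.3 kb (-0.08, adjusted p = 0.814) were not called, Hsd17b11, Klhl8, Aff1, Lrrc8b and Lrrc8c were lower by 0.47 to 0.97 and Lrrc8d was higher by 0.59.

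The 2 lowest log2 differences among the 60 neighbours were those of S1pr1 and Gm9889, which lie side by side after Olfm3. S1pr1, the sphingosine-1-phosphate receptor that governs lymphocyte exit from tissues, was the nearest tested gene after it, at 585 kb. It stood at 908, 1139 and 560 normalized counts in WT and at 285, 160 and 52.7 in R98S (log2 difference -2.62, limma adjusted p = 0.0200, range 0.00549 to 0.0621). Every R98S clone was below every WT clone, which was so for 19.2% of all genes tested. Gm9889, at 589 kb, was lower (log2 difference -2.58), at 50.2 in WT and 8.14 in R98S, and passed the filter only through WT. It lies beside S1pr1 on the opposite strand, so the 2 need not be separate observations. Slc30a7 at 813 kb, Extl2 at 882 kb and Fam102b at 5880 kb were also lower (-0.53, -0.50 and -0.84). Rnpc3, the nearest tested gene before Olfm3 at 1270 kb, was not called (0.04, adjusted p = 0.879). The genes beside Fgf23 did not pass the test. Ccnd2, cyclin D2, at 43.8 kb averaged 8557 and 8689 (0.03, adjusted p = 0.887), and D6Wsu163e at 96.9 kb averaged 1286 and 1347 (0.08, adjusted p = 0.758). Farther out, Tnfrsf1a at 1710 kb (-0.64) and Gm23098 at 768 kb (-1.99) were lower. Gm23098, at 20.9 in WT and 4.49 in R98S, passed the filter only through WT.

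Around Tgm1, Tinf2 (0.14, limma adjusted p = 0.525) and Rabggta (0.23, adjusted p = 0.293) were not called, and Gmpr2, Nedd8 and Nop9 were higher by 0.48, 0.46 and 0.44. Around Tgm2, Rprd1b (0.13, adjusted p = 0.495) and Ralgapb (-0.06, adjusted p = 0.777) were not called and Ctnnbl1 was higher by 0.36. Called neighbours beyond the nearest on each side were named after their values were seen. Of the 20 called neighbours 9 kept the call in every alternative that tested them: Snrnp48, Hsd17b11, Lrrc8c, Fam102b, S1pr1, Gm9889, Tnfrsf1a, Gm23098 and Nedd8. Of the 11 that lost it, 10 did so without WT clone 28 (adjusted p from 0.123 to 0.215) and 8 without WT clone 29 (0.127 to 0.226), and Lrrc8d did so without R98S clone 11 (0.122).

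**Figure D4:**
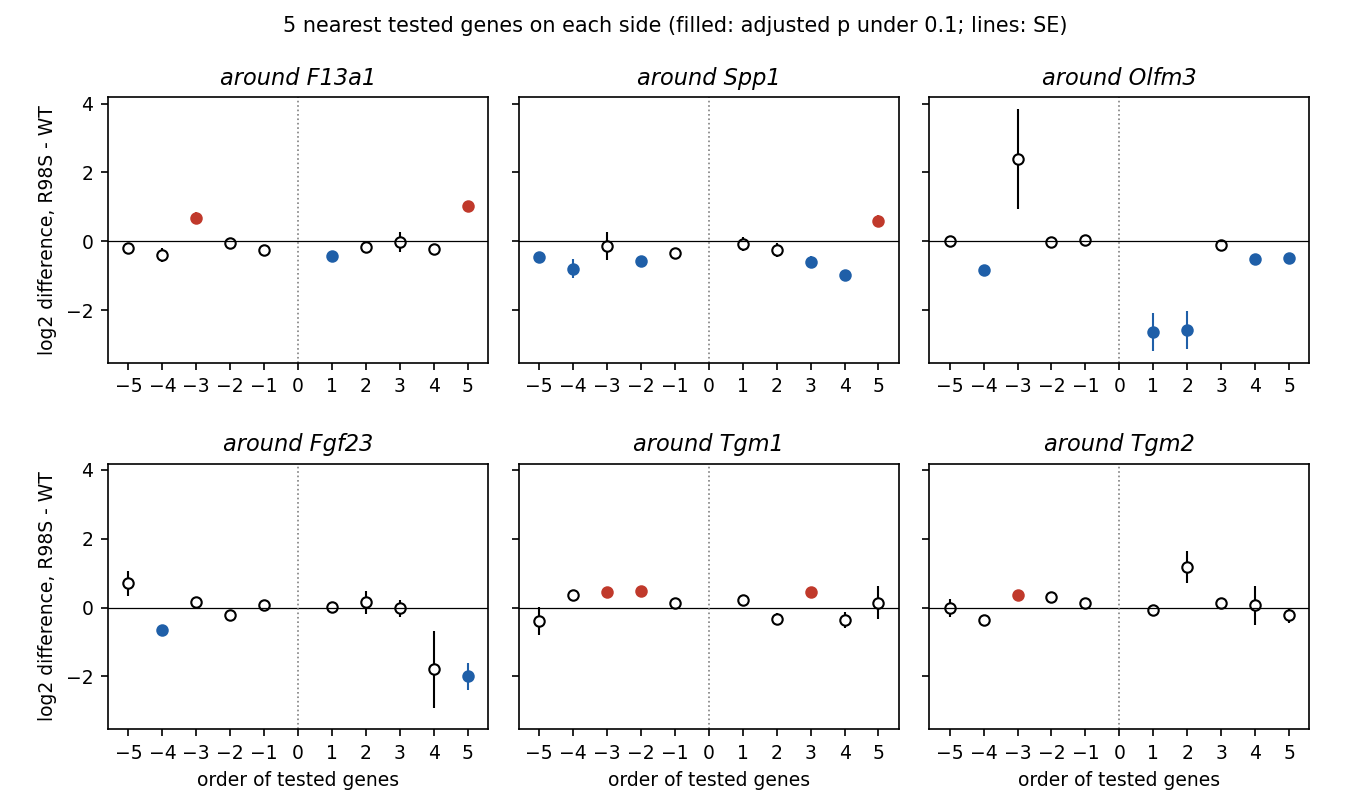
Log2 difference, R98S minus WT, of the 5 nearest tested genes on each side of each gene, in chromosomal order, with the named gene at position 0 left out and vertical lines for the standard error. Filled points passed an adjusted p under 0.1, blue for lower and red for higher. S1pr1 and Gm9889, side by side on opposite strands at positions 1 and 2 after Olfm3, stood at -2.62 and -2.58.

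The genes whose levels followed each of the 6 most closely over the 6 libraries were listed by Pearson r among 9498 other genes with a mean of at least 100 normalized counts. For F13a1, Spp1, Olfm3 and Fgf23 the 6 points fall into the 2 genotypes, so a high r here mostly restates that split. The closest were Eif4g3, Snx2 and Dusp6 to F13a1 (r = 0.997 for each), Scarb1, Polr2c and R3hdm2 to Spp1 (0.997, 0.996 and 0.995), Plod1, Rnf217 and Eif4g3 to Olfm3 (0.999, 0.997 and 0.997) and Hmgxb4, Tmem164 and Ankrd46 to Fgf23 (0.997, 0.997 and 0.993). Of these, Rnf217, a ubiquitin ligase of the RING family, was like Olfm3 near the floor of detection in R98S. It had 591, 458 and 525 normalized counts in the WT clones and 1.88, 2.04 and 4.63 in the R98S clones. With 1 clone left out, its log2 difference was -7.47 to -6.98, smaller in size than the -9.04 to -8.40 of Olfm3. Because both were near the floor in R98S, this order mostly follows their WT means of 525 and 1634. It does not say which was reduced more. Tgm1 was followed most closely by Rab20 and Hs6st1 (0.989 and 0.982) and Tgm2 by Epor, Arf2 and Mxi1 (0.978, 0.972 and 0.958), in which R98S clone 13 was again the highest library. Pearson r takes no account of size. Epor lay at 209 to 241 normalized counts over the 6 libraries, where Tgm2 spanned 103 to 1848. Between the members themselves, r was 0.99 for F13a1 with Spp1 and with Olfm3, 0.94 for F13a1 with Fgf23, and 0.57 for Tgm1 with Tgm2.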

How the data were processed

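Messenger RNA of 6 Ba/F3 clones, 3 WT and 3 R98S, was sequenced from stranded polyA libraries. Per the labels and the methods of the study, the authors aligned reads to mm10 (GRCm38) with TopHat and Bowtie2, kept primary alignments of mapping quality 10 or more, counted reads per gene with HTSeq and deposited counts normalized with DESeq2, a signal per gene. Every value was a whole multiple of its library's smallest step (tolerance 1e-06, 100% of values), so reads were recovered by division. Log2(normalized count + 1) values of genes with a mean of at least 10 entered limma 3.58.1 under R 4.3.3, with a variance trend on intensity, Benjamini-Hochberg adjustment and a threshold of 0.1. The fit was tested on simulated data. Poisson and ratio intervals are exact, at 95% (scipy 1.17.1). Lengths and positions came from GENCODE M21, promoters from RefSeq (5 of 6 genes matched). Alternatives were pseudocounts 0.5 and 5, other filters, scalings and trend, each clone left out, edgeR 4.0.16 and DESeq2 1.42.0 on recovered reads. The 6 genes and all lists were chosen with earlier results of these data known. Genes named are the 6, the tested members of their families, receptors and processing lists, called genes of the other lists, the nearest tested neighbours and the 3 most alike genes. Some genes of these lists are not reported here and are left out of the list counts.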

Additional observations from a re-analysis of the deposited data

How the results depend on the processing

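The log2 differences of F13a1, Spp1, Tgm1 and Tgm2 stayed within 1 SD of the clones in all 15 alternatives, although Tgm1 and Tgm2 changed sign in some of them. Values at the floor of detection moved further: Olfm3 was -7.66 with a pseudocount of 5, and Fgf23 was -6.37 with a pseudocount of 5, -11.11 with DESeq2 and -10.74 with edgeR. Over all genes tested, leaving out 1 clone gave 737 to 1777 lower and 585 to 1436 higher, edgeR 1414 and 1332, and DESeq2 1649 and 1456. Leaving out 1 clone gave 7 to 15 lower and 3 to 6 higher neighbours, and called 0 to 1 cornified envelope genes, 1 to 4 processing genes, 1 to 2 pro-B markers, 1 to 2 interleukin-3 receptor subunits and 0 to 1 mast cell markers. A minimum mean of 50 left 1 processing gene and 1 macrophage marker, no trend left 1 pro-B marker, no filter called 1 platelet marker, and DESeq2, upper-quartile scaling or a minimum mean of 50 each called 1 osteoblast marker. Of 1012 values of 68 other named genes, 921 kept direction and call, 66 lost and 3 gained a call, and 22 in 11 genes changed sign, none of them a called gene. Arf2 was 0.036 with DESeq2, 0.039 with edgeR and 0.00382 with upper-quartile scaling. With 1 clone left out Arf2 ranged from -0.37 to 0.15, BC005561 from -0.30 to 0.045, Ccnd2 from -0.045 to 0.092, D6Wsu163e from -0.059 to 0.16, Epor from -0.053 to 0.049, Hs6st1 from -0.26 to 0.065, Itga4 from -0.23 to 0.56, Mxi1 from -0.32 to 0.030, Rab20 from -0.31 to 0.010, Ralgapb from -0.11 to 0.033 and Rnpc3 from -0.10 to 0.14. The cause was not tested. No paired analysis was possible because the WT and R98S clones carry different numbers. Depth limits the residual levels of Olfm3 and Fgf23, which rest on 8 reads and 1 read.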
